A study of Mus musculus with 12 samples.

Results

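The genes described here are 10 genes of the mouse major histocompatibility complex (MHC) pathway, out of 57490 genes in the deposited count table. They were taken by gene name and are the class I heavy chains H2-K1 and H2-D1 with their light chain B2m, the class II chains H2-Aa, H2-Ab1 and H2-Eb1, the class II peptide editors H2-DMa and H2-DMb1, the invariant chain Cd74 and the class II transactivator Ciita. All 10 passed the filter on low counts. Kidney RNA was sequenced from 12 male mice of the BKS background at 13 weeks of age, 4 in each of 3 groups. Ctrl was made up of non-diabetic db/m animals (heterozygous db/+), Model of diabetic db/db mice of the stock BKS.Cg-Dock7m +/+ Leprdb/JNju, which lack a working leptin receptor, and YHY of db/db mice from this stock given a water extract of Yiqi Huoxue Yangyin Decoction at 6.24 g/mL. Ctrl and Model mice received purified water, and gavage was given once a day for 4 weeks in every group, with a volume of 50 µL for each 10 g of weight. The db/db mice had been selected for high random blood glucose, the sample labels name whole kidney tissue where the series design names renal cortex, and which of the study's doses was sequenced is not stated. The study planned to compare Model with Ctrl for the changes of diabetic nephropathy and YHY with Model for the effect of treatment.

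Class I molecules, a polymorphic heavy chain paired with B2m, display peptides from inside the cell to CD8 T cells on nearly all nucleated cells. Class II molecules, a pair of alpha and beta chains, display peptides taken up from outside to CD4 T cells, mainly on dendritic cells, macrophages and B cells, and on tubule cells in inflamed kidneys. Cd74 fills the class II groove during assembly, H2-DM exchanges its remnant for antigenic peptides, and Ciita switches on class II genes as a coactivator, a task that Nlrc5 has for class I genes. The H2 complex differs between inbred strains in sequence and in the set of its genes. The reference genome is that of C57BL/6J, of haplotype b, in which the gene of the class II E alpha chain, H2-Ea, is silent for want of its promoter, whereas BKS mice descend in part from DBA/2J, whose haplotype d expresses it. Reads of another haplotype can be lost or assigned to a related gene, and the haplotype of these mice is not given in the labels.

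Library totals, the reads assigned to genes in a mouse, ran from 24415658 to 33276634. Transcripts of the mitochondrial genome took 19.5% ± 2.12 of the counts of Ctrl mice, 52.2% ± 7.68 for Model mice and 56.8% ± 5.21 for YHY mice (SD, n = 4 each), and the 95% Wilson interval of each mouse was at most 0.0396 percentage points wide, for counting error only. The choice of scaling therefore moved the fold change of every gene between Ctrl and the db/db groups. Levels are given as CPM, counts brought to a common library size with edgeR's TMM factors, and differences between groups were tested by the quasi-likelihood method of edgeR in a single fit of the 12 mice, two-sided, with Benjamini-Hochberg adjustment over the 17431 genes that passed its filter. A gene was called at an adjusted P under 0.05, and was counted separately at the study's limits, a fold change of more than 1.2 with P below 0.05 before adjustment. An exact permutation test of CPM, two-sided, was added for single genes, whose smallest P is 0.0286 for 4 mice against 4. The kidney identity of the libraries was seen in its markers, of which 10 of 10 were tested and summed to 5461 to 5804 CPM in Ctrl mice, 3857 to 4323 in Model mice and 3135 to 4791 in YHY mice, with the phosphate transporter Slc34a1 the most abundant.

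To compare the genes with each other, counts were divided by the deposited gene length and expressed as a share of all non-mitochondrial transcripts (nuclear TPM). In Ctrl, B2m had the highest level, 1079 nuclear TPM (range 908 to 1280.0), followed by H2-D1 with 402 (354 to 441) and Cd74 with 283 (186 to 371). H2-Eb1, H2-K1 and H2-Ab1 came next, with 87.9, 81.6 and 67.5 nuclear TPM, and then H2-Aa with 37.2. H2-DMa with 8.70, H2-DMb1 with 3.93 and Ciita with 0.927 nuclear TPM were the lowest. Within each of the 4 Ctrl mice H2-D1 was above Cd74, and H2-Eb1 and H2-K1 were above H2-Ab1, while the order of H2-Eb1 and H2-K1 differed between mice. In Model, H2-Eb1 (33.6 nuclear TPM) stood below H2-K1 (90.5) and H2-Ab1 (54.7), and H2-Aa (15.0) was close to H2-DMa (14.5). Of the 10 genes, 7 lie within the H2 complex on chromosome 17, whereas B2m, Ciita and Cd74 lie on other chromosomes.

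The genes of class I and II chains, of B2m, of H2-DM and of the invariant chain are known for a shared promoter element, the X-Y module, of which the Y box is an inverted CCAAT sequence bound by the factor NF-Y. RefSeq promoters of build GRCm38.p6, reaching from 250 bases before to 50 after the start, were matched by symbol for 7 of the 10 genes, those without an entry being H2-Ab1, Cd74 and Ciita. The letters CTGATTGG, searched for as the Y box, were found on either strand in 4 of the 7, H2-K1, H2-D1, H2-Aa and H2-Eb1. They occurred in 4.1% of all 32851 promoters in the table. In both class II promoters the box reads along the gene, ending 43 bases before the start in H2-Aa and 54 in H2-Eb1, whereas in the class I promoter of H2-D1 it reads on the opposite strand, 45 bases before the start. In H2-K1, with 2 entries, the letters also lie on the opposite strand, across the start in 1 entry and after it in the other. The palindrome GGGATTCCC, a form of the kappa B site, was found in the promoters of both class I heavy chains and in 0.353% of all promoters. The cyclic AMP element TGACGTCA was found in H2-Aa alone of the 7 and in 1.79% of all. The 250 bases before the start are shown for a class I heavy chain and both class II chains of this group, 5′ to 3′ along the gene, with these motifs in capitals. The genes changed to different degrees. The capitals CCAATCAG of H2-D1 are the searched letters on the opposite strand and are not known to be its Y box. A match of letters is a description of the sequence. The sequences are H2-D1 at chr17:35262844-35263093, plus strand, H2-Aa at chr17:34287824-34288073, minus strand and H2-Eb1 at chr17:34305617-34305866, plus strand, all from the C57BL/6J reference, from which the alleles of these mice may differ.
H2-D1: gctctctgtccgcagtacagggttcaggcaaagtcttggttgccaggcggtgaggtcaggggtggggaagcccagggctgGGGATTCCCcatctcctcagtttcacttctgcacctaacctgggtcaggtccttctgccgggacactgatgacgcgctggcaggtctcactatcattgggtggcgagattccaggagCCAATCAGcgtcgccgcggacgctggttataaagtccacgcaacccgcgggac
H2-Aa: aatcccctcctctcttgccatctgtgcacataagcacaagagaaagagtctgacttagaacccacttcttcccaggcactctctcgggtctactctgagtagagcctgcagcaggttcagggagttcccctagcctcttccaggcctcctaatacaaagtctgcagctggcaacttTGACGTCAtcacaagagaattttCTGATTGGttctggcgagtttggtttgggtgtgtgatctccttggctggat
H2-Eb1: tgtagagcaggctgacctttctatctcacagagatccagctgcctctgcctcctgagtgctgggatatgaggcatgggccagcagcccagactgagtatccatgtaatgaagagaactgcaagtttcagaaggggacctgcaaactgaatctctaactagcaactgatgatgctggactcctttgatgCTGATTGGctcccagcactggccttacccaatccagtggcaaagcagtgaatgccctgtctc

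In Model kidneys the class II chains and Cd74 were lower than in Ctrl, with the largest fitted falls in H2-Eb1 and H2-Aa, and H2-D1 and B2m were lower as well. Of the 10 genes, 6 were called lower and 0 higher, where 18.5% of all genes tested were called lower and 19.6% higher. At the study's limits, 6 were lower and 0 higher, against 22.4% and 24.5% of all genes. DESeq2 also called 6 lower and 0 higher, where it called 16.4% of all genes lower and 18% higher. The median log2 fold change of the 10 was -0.73, against 0.04 for all genes. In 5 genes, H2-Aa, H2-Eb1, Cd74, H2-D1 and B2m, every Model mouse was below every Ctrl mouse, as were the Model mice for 20.3% of all genes. Since bulk tissue was sequenced, fewer cells carrying MHC molecules and less RNA per cell cannot be told apart.

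**Figure D1:**
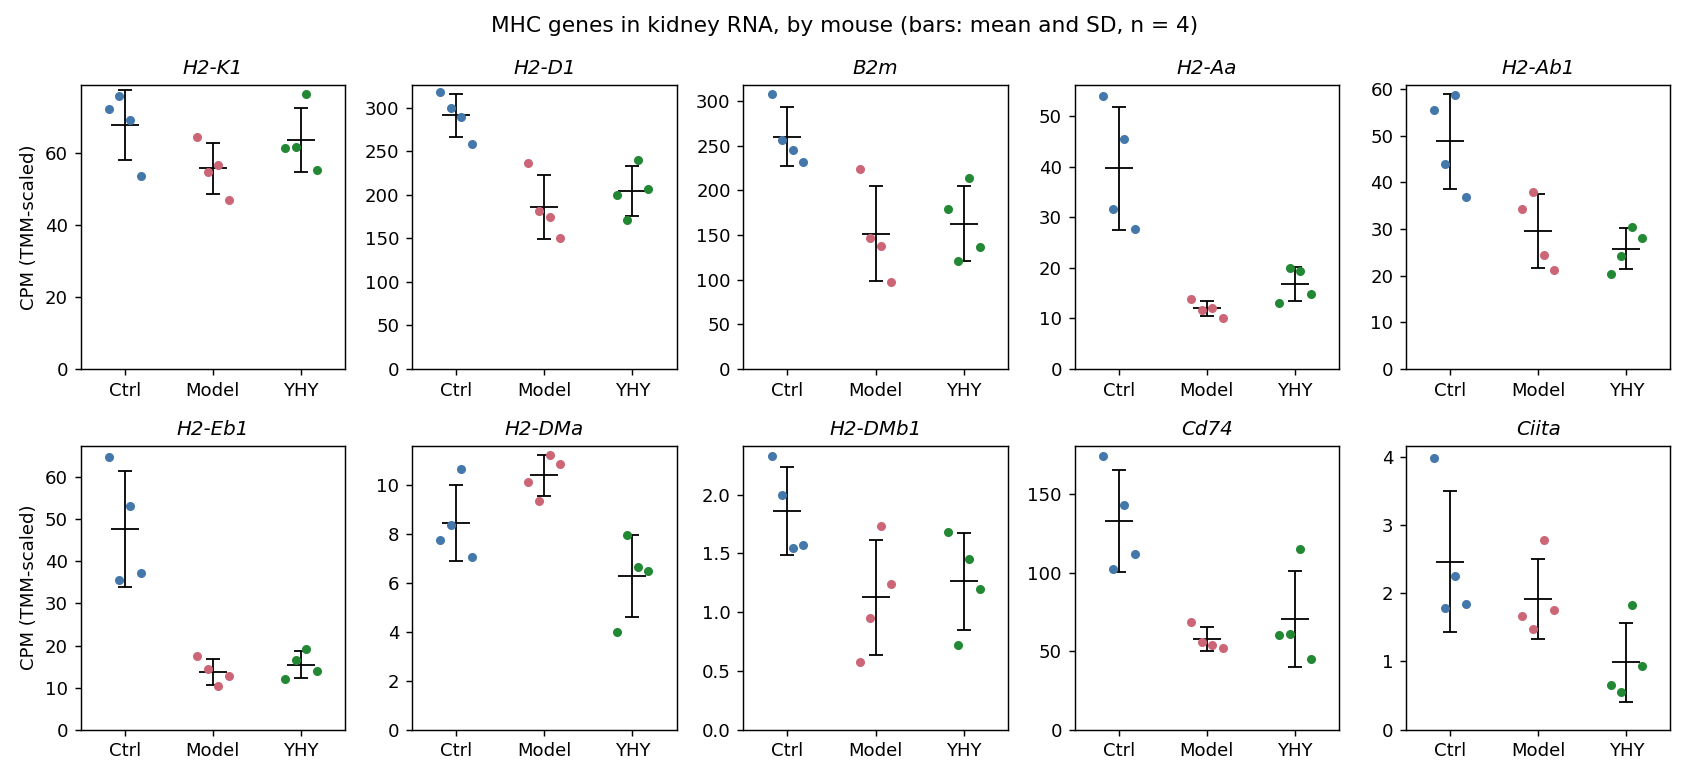
Level of each of the 10 genes in each mouse in CPM (vertical axes, each starting at 0) for Ctrl, Model and YHY, with 1 point per mouse and bars for the mean and SD of 4 mice. H2-Aa and H2-Eb1 separate all Ctrl mice (27.6 to 54.0 and 35.5 to 64.8 CPM) from all Model mice (10.13 to 13.9 and 10.3 to 17.5 CPM), whereas the groups overlap for H2-K1.

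H2-Aa (ENSMUSG00000036594, chromosome 17, 34501718 to 34506797, minus strand), the alpha chain of the A molecule, was at 54.0, 31.6, 45.5 and 27.6 CPM in Ctrl 1 to 4 and at 13.9, 11.6, 12.1 and 10.13 CPM in Model 1 to 4. Ctrl 1 was the highest, and the Model mice lay close together below all Ctrl mice (log2 fold change -1.73, standard error 0.21, adjusted P = 2.79e-05, edgeR). H2-Eb1 (ENSMUSG00000060586, chromosome 17, 34524841 to 34535648, plus strand), the beta chain of the E molecule, had 64.8, 35.5, 53.2 and 37.3 CPM in Ctrl and 17.5, 14.3, 10.3 and 12.7 CPM in Model. Its groups did not overlap either (log2 fold change -1.80, standard error 0.22, adjusted P = 2.79e-05, edgeR). H2-Ab1 (ENSMUSG00000073421, chromosome 17, 34476663 to 34488393, plus strand), the beta chain that pairs with H2-Aa, had 55.5, 43.9, 58.8 and 36.9 CPM in Ctrl and 34.4, 37.9, 24.5 and 21.2 CPM in Model. Model 2 was above Ctrl 4, and the fall of H2-Ab1 was smaller than that of its partner (log2 fold change -0.72, standard error 0.20, adjusted P = 0.0108, edgeR), with an exact permutation P of 0.0571. Cd74 (ENSMUSG00000024610, chromosome 18, 60936920 to 60945724, plus strand) had 174, 102, 143 and 112 CPM in Ctrl and 68.7, 56.0, 53.8 and 51.6 CPM in Model, without overlap (log2 fold change -1.21, standard error 0.25, adjusted P = 0.00136, edgeR). The exact permutation P was 0.0286, the smallest possible, for H2-Aa, H2-Eb1 and Cd74.

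The remaining class II genes were not called between Model and Ctrl. H2-DMa (ENSMUSG00000037649, chromosome 17, 34338515 to 34358075, plus strand) had 7.76, 8.36, 10.6 and 7.03 CPM in Ctrl and 10.11, 9.34, 11.2 and 10.9 CPM in Model, so that the Model mice overlapped Ctrl 3 only (log2 fold change 0.30, standard error 0.21, adjusted P = 0.284, edgeR). It was the only one of the 10 genes with a positive log2 fold change in this comparison, which was -0.13 with scaling by library size alone. H2-DMb1 (ENSMUSG00000079547, chromosome 17, 34372046 to 34379204, plus strand), its partner, was low, at 2.33, 2.00, 1.54 and 1.57 CPM in Ctrl and 0.579, 0.953, 1.74 and 1.24 CPM in Model (log2 fold change -0.73, standard error 0.41, adjusted P = 0.172, edgeR), or 63 to 97 and 18 to 38 reads. Model 3 was above Ctrl 3 and Ctrl 4, and the other Model mice were below all Ctrl mice. Ciita (ENSMUSG00000022504, chromosome 16, 10297923 to 10346282, plus strand) had 3.99, 1.78, 2.25 and 1.84 CPM in Ctrl and 1.67, 1.48, 2.79 and 1.75 CPM in Model. Its groups overlapped widely (log2 fold change -0.36, standard error 0.42, adjusted P = 0.523, edgeR), from reads that numbered 57 to 166 in Ctrl and 31 to 61 in Model.

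Among the class I genes, H2-D1 (ENSMUSG00000073411, chromosome 17, 35481706 to 35486475, plus strand) had 318, 299.5, 289 and 258 CPM in Ctrl and 237, 181, 175 and 151 CPM in Model. Model 1 was the highest of its group and still below every Ctrl mouse (log2 fold change -0.65, standard error 0.17, adjusted P = 0.00625, exact permutation P = 0.0286, edgeR). B2m (ENSMUSG00000060802, chromosome 2, 121978167 to 121983564, plus strand) had 307, 256, 245 and 231 CPM in Ctrl and 224, 146, 137 and 97.1 CPM in Model. Model 1 again stood nearest to Ctrl (log2 fold change -0.78, standard error 0.23, adjusted P = 0.0152, edgeR), and without Model 4, the lowest mouse, the call was lost (-0.62, adjusted P = 0.0528). H2-K1 (ENSMUSG00000061232, chromosome 17, 34214991 to 34219321, minus strand) had 72.3, 75.8, 69.3 and 53.8 CPM in Ctrl and 64.5, 54.9, 56.8 and 46.9 CPM in Model. Its groups overlapped and it was not called (log2 fold change -0.28, standard error 0.15, adjusted P = 0.161, edgeR).

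**Figure D2:**
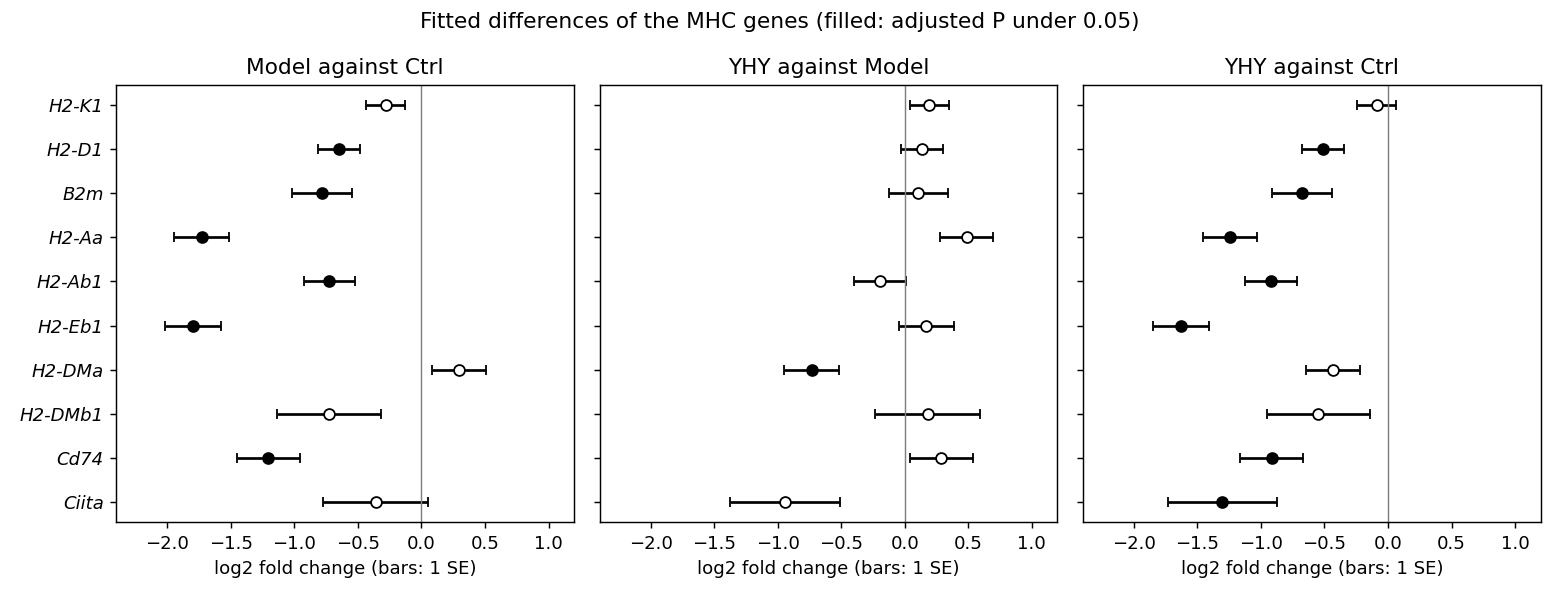
Fitted log2 fold change (horizontal axes) of each of the 10 genes in the 3 comparisons, with bars of 1 standard error and filled circles for an adjusted P under 0.05. The 6 filled circles of Model against Ctrl lie between -1.80 and -0.65, and 1 circle, that of H2-DMa at -0.73, is filled for YHY against Model.

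Because the mitochondrial share differed, the comparison was repeated with other scalings. DESeq2 and upper-quartile scaling called 6 genes lower and 0 higher in each case. Of all genes, DESeq2 called 16.4% lower and 18% higher, and upper-quartile scaling 15.0% lower and 23.1% higher. With library size as the sole scaling, which counts the mitochondrial reads in, 8 were called lower, H2-K1 and H2-DMb1 being added, where 32.5% of all genes were called lower and 8.87% higher, and the median log2 fold change of all genes shifted to -0.39. Scaling by library size after removal of the mitochondrial genes shifted that median to 0.37 and called 3 genes lower, H2-Aa (-1.41, adjusted P = 1.05e-04), H2-Eb1 (-1.48, 1.19e-04) and Cd74 (-0.89, 0.0140), and 1 higher, H2-DMa (0.63, 0.0245), where 9.42% of all genes were called lower and 32.9% higher. The fall of H2-Aa, H2-Eb1 and Cd74 was therefore called under all 5 scalings, whereas that of H2-D1 (-0.33, 0.107), B2m (-0.47, 0.111) and H2-Ab1 (-0.40, 0.113) was lost under this one. Of all genes called with TMM in this comparison, 51.5% were higher, against 21.4% and 77.8% with the 2 scalings by library size.

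**Figure D3:**
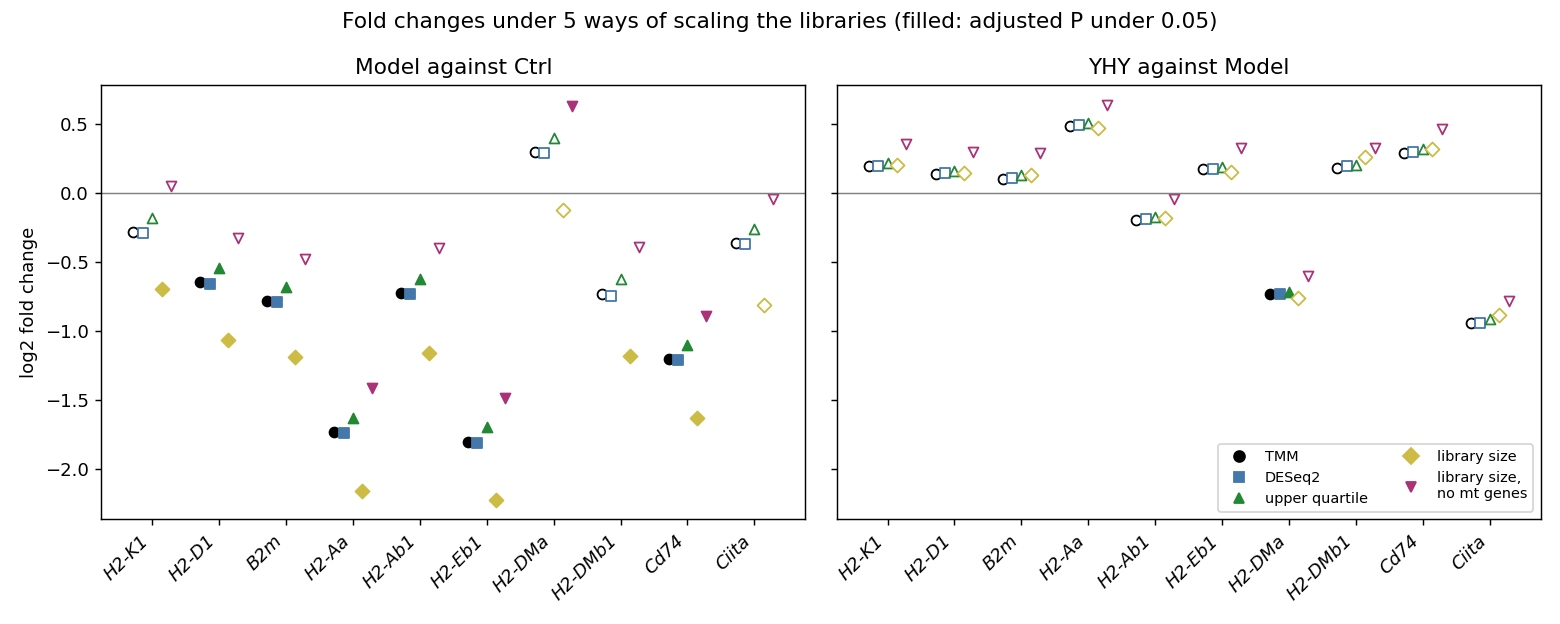
Log2 fold change (vertical axis) of the 10 genes under 5 scalings of the libraries, for Model against Ctrl and YHY against Model, filled where the adjusted P was under 0.05. The scalings spread H2-Aa from -2.16 to -1.41 in Model against Ctrl without crossing 0, while H2-K1 runs from -0.70 to 0.05.

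In YHY kidneys H2-DMa was the one of the 10 genes called against Model at an adjusted P under 0.05. Of the 10, 1 was lower and 0 higher, where 7.62% of all genes were called lower and 5.63% higher, and DESeq2 also called 1 lower and 0 higher of the 10, where 9.79% of all genes were called lower and 8.31% higher. At the study's limits 2 were lower, H2-DMa and Ciita, and 1 was higher, H2-Aa, against 14.7% and 13.9% of all genes. The median log2 fold change was 0.15, against 0.02 for all genes. H2-DMa had 3.97, 7.96, 6.66 and 6.47 CPM in YHY 1 to 4, below every Model mouse (9.34 to 11.2 CPM), as were the YHY mice for 9.28% of all genes. YHY 1 was the lowest (log2 fold change -0.73, standard error 0.22, adjusted P = 0.0349, edgeR). This call was close to the threshold and was lost without any 1 of Model 1, Model 2, Model 3, Model 4, YHY 1 or YHY 3 (adjusted P from 0.0501 to 0.0976), with both scalings by library size (0.0511 and 0.0719), with the 8 mice compared alone (0.0818) and with the 9 mice of the authors' means (0.0760).

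H2-Aa had 13.1, 19.9, 19.4 and 14.8 CPM in YHY, against 10.13 to 13.9 CPM in Model. YHY 2 and YHY 3 were the highest and YHY 1 overlapped Model 1, and H2-Aa was not called (log2 fold change 0.49, standard error 0.21, adjusted P = 0.1399, exact permutation P = 0.0571, edgeR). Its partner H2-Ab1 had 20.3, 24.2, 30.5 and 28.1 CPM and H2-Eb1 had 11.9, 16.6, 19.2 and 13.9 CPM in YHY, both overlapping Model (log2 fold changes -0.19 and 0.17, adjusted P = 0.579 and 0.661, edgeR). Cd74 had 60.2, 60.8, 115 and 45.1 CPM in YHY. YHY 3 stood at the level of Ctrl and the other 3 at that of Model, so the log2 fold change of 0.29 (adjusted P = 0.478, edgeR) turned to -0.06 without YHY 3. Ciita had 0.649, 0.553, 1.82 and 0.930 CPM in YHY, from 10 to 49 reads per mouse, with YHY 3 again the highest. It was not called (log2 fold change -0.94, standard error 0.43, adjusted P = 0.163, edgeR), and was called lower without YHY 3 (-1.42, adjusted P = 0.0459).

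The class I genes in YHY overlapped those in Model. H2-D1 had 200.3, 171, 240.2 and 206 CPM, B2m had 179, 121, 213 and 137 CPM and H2-K1 had 61.4, 61.9, 76.5 and 55.4 CPM in YHY 1 to 4. YHY 3 was the highest for each of them and above all Model mice for H2-D1 and H2-K1, and their log2 fold changes against Model were 0.14, 0.10 and 0.19 (adjusted P = 0.636, 0.819 and 0.440, edgeR). That of B2m had the opposite sign without Model 4 (-0.06) and without YHY 3 (-0.06). H2-DMb1 had 1.68, 0.719, 1.45 and 1.201 CPM in YHY (log2 fold change 0.18, adjusted P = 0.825, edgeR), or -0.04 without Model 1.

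Set against Ctrl, which shares its mice with the comparisons above, YHY had 7 of the 10 genes called lower and 0 higher, against 24.2% and 26.1% of all genes tested. DESeq2 also gave 7 and 0, against 20.1% and 23.2% of all genes. At the study's limits 7 were lower and 0 higher, against 26.6% and 29.4% of all genes. They were H2-Eb1, H2-Aa, H2-Ab1, Cd74, Ciita, H2-D1 and B2m. In 5 genes every YHY mouse was below every Ctrl mouse, as were the YHY mice for 22.7% of all genes. Among them H2-Eb1 had the largest fitted fall, with a log2 fold change of -1.63 for YHY, beside -1.80 for Model, each against Ctrl (adjusted P for YHY = 2.14e-05, edgeR). For YHY and for Model in this order, H2-Aa had -1.24 and -1.73, Cd74 -0.92 and -1.21, and H2-Ab1 -0.92 and -0.72. For Cd74, YHY 3 lay among the Ctrl mice, with an exact permutation P of 0.0857. Ciita was called in YHY against Ctrl only (log2 fold change -1.30, standard error 0.43, adjusted P = 0.0188, exact permutation P = 0.0571, edgeR), a call lost without Ctrl 1 (0.0794) and without YHY 1 (0.0502), and the difference between its comparisons is the YHY against Model value given above, which was not called. H2-D1 (-0.51) lost its call without YHY 2 (adjusted P = 0.0504) and with upper-quartile scaling (0.0680), and B2m (-0.68) without Ctrl 1, YHY 2 or YHY 4 (0.0626, 0.0720 and 0.0557) and with upper-quartile scaling (0.0665). H2-DMa (-0.43, adjusted P = 0.104, edgeR) was called lower without Ctrl 4 (0.0465) or YHY 2 (0.0447), and with library size alone (0.00352). With library size after removal of the mitochondrial genes, 2 genes were called lower, H2-Aa (-0.77) and H2-Eb1 (-1.16), and 1 higher, H2-K1 (0.40, adjusted P = 0.0350). Of all genes, 12.6% were then called lower and 43.9% higher. The calls of H2-D1 (-0.03, adjusted P = 0.885) and B2m (-0.19, 0.512) were lost under this scaling. So were those of H2-Ab1 (-0.45, 0.0652), Cd74 (-0.42, 0.186) and Ciita (-0.82, 0.126, edgeR).

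Whether the H2 haplotype bears on these values was examined through H2-Ea, through shared sequence and through ratios between chains. H2-Ea (ENSMUSG00000036322, chromosome 17, 34560926 to 34563618, minus strand), which is silent in the strain of the reference, had 75.8, 43.1, 67.2 and 38.1 CPM in Ctrl mice, 21.95, 12.9, 19.4 and 14.4 in Model mice and 15.99, 14.7, 31.3 and 18.3 in YHY mice, from 266 to 3155 reads. It was thus read in all 12 mice, and its level in Ctrl per length, 191 nuclear TPM, was above that of H2-Eb1. Its transcripts in the reference annotation shared 0 stretches of 50 bases with another gene. H2-Ea was lower in Model than in Ctrl (log2 fold change -1.71, standard error 0.27, adjusted P = 1.91e-04, edgeR), as was its partner chain H2-Eb1 above, and was not called in YHY against Model (0.23, adjusted P = 0.624). Reads on H2-Ea in Ctrl, Model and YHY alike differ from the silence of the gene in the reference strain, so reads of the H2 chains may have been aligned to alleles other than their own. The alleles themselves cannot be read from counts. The study names the db/m mice as heterozygous littermates, and whether the alleles were the same in db/m and db/db mice was not tested.

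Shared sequence was counted in the reference transcripts of GENCODE M21, along the sense strand. Of the distinct stretches of 50 bases in H2-D1 transcripts, 12.8% also occurred in transcripts of another gene, 5.87% in H2-Q1 and 5.44% in H2-K1. Of those in H2-K1, 9.63% were shared, 5.18% with H2-Q10 and 4.08% with H2-D1. At 100 bases the shares were 3.59% for H2-D1 and 0.957% for H2-K1. H2-DMb1 shared 22.7% of its stretches of 50 bases, all with the neighbouring H2-DMb2, and H2-Aa shared 0.488%, while B2m, H2-Ab1, H2-Eb1, H2-DMa, Cd74 and Ciita shared 0. The values of H2-K1, H2-D1 and H2-DMb1 are therefore uncertain by reads that related genes could have taken or given, and a nonreference haplotype could add to this for every H2 gene.

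For that reason the reads of related genes were also summed. All 25 listed class I heavy chain genes of the H2 complex, as 1 feature, had a log2 fold change of -0.44 in Model against Ctrl (standard error 0.15, adjusted P = 0.0345, edgeR), 0.09 in YHY against Model (0.746) and -0.34 in YHY against Ctrl (0.0739). H2-D1 made up 60.5% ± 1.56 of these reads in Ctrl, 51.9% ± 4.65 in Model mice and 53.8% ± 3.51 in YHY mice (SD, 4 per group). H2-K1 made up 14.0% ± 0.953, 15.6% ± 0.388 and 16.8% ± 0.962. H2-DMb1 and H2-DMb2 together were called lower in Model (-0.82, adjusted P = 0.0442, edgeR), where H2-DMb1 alone was not. H2-Eb1 with H2-Eb2 had the same log2 fold change to 2 decimals as H2-Eb1 alone (-1.80). H2-Eb2 had at most 2 reads in a mouse, so this sum could hardly differ.

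Some members also lie across genes of the opposite strand, which were looked up after the values were seen, and it is not stated whether reads were counted by strand. H2-DMa overlaps Brd2 by 3094 bases in the deposited coordinates. Brd2 stood at 103 ± 11.9 CPM in Ctrl mice, 116 ± 15.0 in Model mice and 116 ± 20.8 in YHY mice (SD, 4 per group), well above H2-DMa, so reads of Brd2 counted on H2-DMa cannot be told apart from its own. Ciita overlaps Dexi by 25888 bases, with Dexi at 12.7 ± 0.148, 13.8 ± 2.05 and 13.0 ± 2.57 CPM in the 3 groups. The opposite-strand partners of B2m and H2-Eb1, Patl2 and Gm20513, stayed at or below 0.599 CPM in every mouse.

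Ratios between chains within a mouse do not depend on the scaling of the libraries, and were singled out after their values were seen. Per base of gene length, the ratio of H2-Aa to H2-Ab1 was 0.658, 0.488, 0.523 and 0.507 in Ctrl 1 to 4, 0.273, 0.207, 0.336 and 0.322 in Model and 0.434, 0.556, 0.430 and 0.356 in YHY. All Model mice were below all Ctrl mice and below all YHY mice, while Ctrl and YHY overlapped. The partner chains H2-Ea and H2-Eb1 had a ratio of 1.90 to 2.36 in Ctrl, 1.67 to 3.52 in Model and 1.65 to 3.04 in YHY, with overlap. The ratio of H2-K1 to H2-D1 was 0.183 to 0.222 in Ctrl, below that of Model (0.239 to 0.286) and YHY (0.236 to 0.317), and that of H2-D1 to B2m overlapped in all groups (0.345 to 0.394, 0.353 to 0.517 and 0.372 to 0.502).

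**Figure D4:**
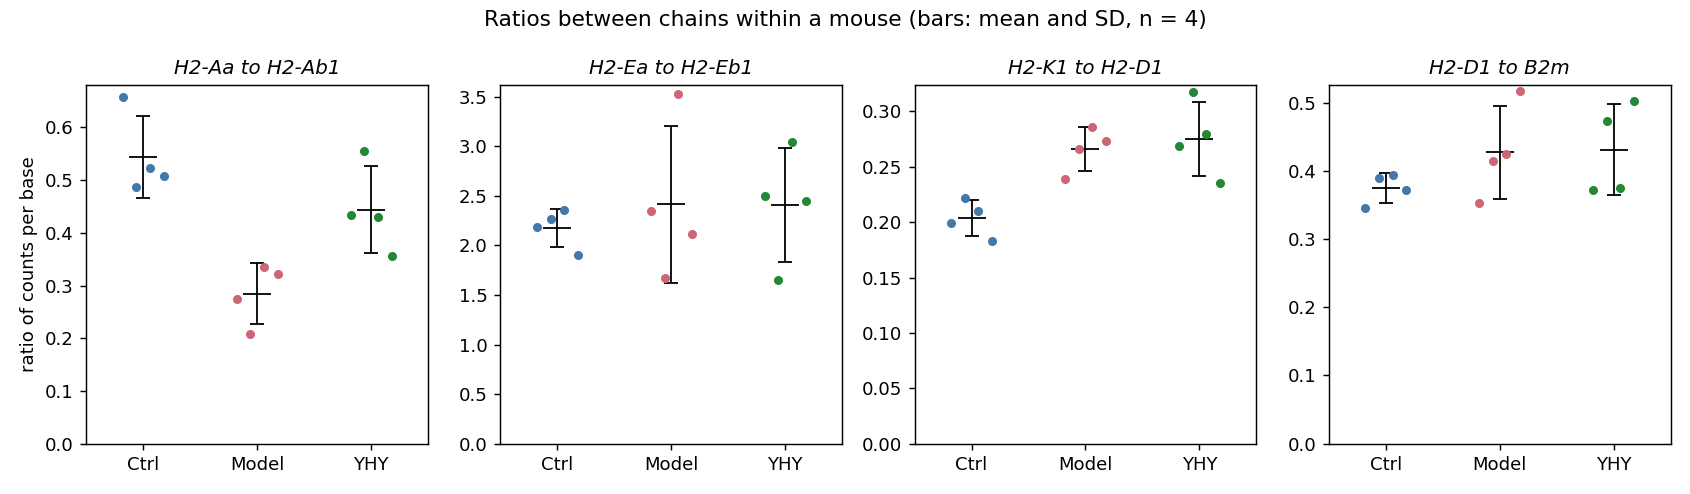
Ratio of counts per base of gene length (vertical axes from 0) between chains within each mouse, with 1 point per mouse and bars for the mean and SD of 4 mice. For H2-Aa to H2-Ab1 the Model mice (0.207 to 0.336) lie below the Ctrl mice (0.488 to 0.658), and for H2-Ea to H2-Eb1 the groups overlap.

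The other genes of the pathway were read from lists, each counted in full. By edgeR, 18.5% of all genes were called lower and 19.6% higher in Model against Ctrl and 7.62% of all genes were called lower and 5.63% higher in YHY against Model, and the counts of the lists stand beside these shares. Of the class I heavy chain and related genes beyond the members, 15 of 35 names were tested, and 27 were in the count table. In Model against Ctrl 1 lower and 3 higher were called, with a median log2 fold change of -0.30. The higher ones were the class Ib gene H2-Q4 (16.4 ± 2.83 CPM in Ctrl and 25.5 ± 5.02 CPM in Model, log2 fold change 0.63, adjusted P = 0.0125, edgeR), the iron regulator Hfe (0.42) and the low-count gene H2-K2 (1.87), none of which was called with library size alone, where Hfe also changed sign and 6 of the list were called lower and 0 higher by edgeR. The lower one was Fcgrt (-0.92, adjusted P = 8.09e-04), the heavy chain of the neonatal Fc receptor, which also pairs with B2m. In YHY against Model 1 lower and 0 higher were called, H2-T22 being lower (29.8 ± 3.53 CPM in Model and 20.3 ± 2.63 CPM in YHY, log2 fold change -0.56, adjusted P = 0.0258, edgeR), and not with either scaling by library size. At an unadjusted P under 0.05, 2 were higher, and DESeq2 called 0 higher.

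Of the other class II genes, 3 of 9 names were tested, H2-Ea, H2-DMb2 and H2-Ob, and H2-Ea alone was called, in Model and in YHY each against Ctrl. In YHY against Model 0 were called lower and 0 higher by edgeR and by DESeq2, and 0 had an unadjusted P under 0.05. H2-Eb2 had at most 2 reads in a mouse, and H2-Pa and H2-Pb had 0 in all. Of the genes that load peptides onto class I molecules, 13 of 13 were tested and 5 lower and 0 higher were called in Model against Ctrl. These were the chaperones Canx (259 ± 21.6 CPM in Ctrl, 71.1 ± 14.1 CPM in Model, log2 fold change -1.86, adjusted P = 1.94e-06, edgeR), Calr (-1.28) and Pdia3 (-1.28), which serve many other glycoproteins, the peptide trimmer Erap1 (-0.78) and Tapbpl (-1.13). Erap1 was not called with library size after removal of the mitochondrial genes. The interferon-induced transporter and proteasome genes Tap1, Tap2, Psmb8, Psmb9 and Psmb10 had log2 fold changes of 0.10, -0.07, -0.41, -0.25 and -0.04 and were not called. In YHY against Model 0 lower and 0 higher were called by edgeR with TMM scaling, 2 higher and 1 lower at an unadjusted P under 0.05, and DESeq2 called 1 higher. With library size after removal of the mitochondrial genes edgeR called 2 higher, Tap1 (0.92, adjusted P = 0.0447) and Tap2 (0.67, adjusted P = 0.0477).

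Of the genes of class II peptide loading and turnover, 9 of 11 names were tested and 2 lower and 0 higher were called in Model against Ctrl, the lysosomal protease Ctsl (343 ± 32.3 CPM in Ctrl, 141 ± 53.6 CPM in Model, log2 fold change -1.28, adjusted P = 3.84e-04, edgeR) and the thiol reductase Ifi30 (-0.43, adjusted P = 0.0313). Ifi30 was not called with upper-quartile scaling or with library size after removal of the mitochondrial genes. At an unadjusted P under 0.05 5 of the list were lower, DESeq2 called 4 lower and library size alone 7. Ctss, which trims the invariant chain in dendritic cells and macrophages, had a log2 fold change of -0.08 (adjusted P = 0.869). In YHY against Model 2 lower and 0 higher were called, the protease Ctsd (-0.49, adjusted P = 0.0497) and the ubiquitin ligase Marchf8 (-0.55, adjusted P = 0.0215, edgeR), and neither was with either scaling by library size, nor Ctsd with upper-quartile scaling (0.0531). Of the regulators, 20 of 21 were tested, Ifng, the cytokine that induces these genes, being too low for a test. In Model against Ctrl 3 lower and 3 higher were called. Among the lower ones were Jak1 (-0.80, adjusted P = 8.83e-04) and Creb1 (-0.84, adjusted P = 7.71e-04, edgeR). Stat2 (1.33), the NF-Y subunit Nfyc (0.97) and the myeloid factor Spi1 (0.65) were higher, Nfyc and Spi1 not with library size alone, which called 9 lower and 1 higher.

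In YHY against Model, 0 lower and 3 higher of the regulators were called by edgeR, and 0 lower and 4 higher by DESeq2. Those called by edgeR were Rfx5, a subunit of the RFX complex that binds the X box of MHC promoters (3.57 ± 0.841 CPM in Model, 6.46 ± 1.47 CPM in YHY, log2 fold change 0.86, adjusted P = 0.0331, edgeR), Irf9 (0.82, adjusted P = 0.00853) and Creb1 (0.65, adjusted P = 0.0161). Rfx5 and Creb1 were not called with library size alone (adjusted P = 0.0504 and 0.0688). The class I transactivator Nlrc5 had 2.79, 1.72, 2.38 and 1.05 CPM in Ctrl mice, 2.03, 3.95, 1.92 and 2.69 in Model mice and 4.31, 6.36, 7.33 and 3.45 in YHY mice. It was called in YHY against Ctrl (1.43, adjusted P = 0.00344, edgeR) and not in YHY against Model (1.02, adjusted P = 0.0711) with TMM scaling. In YHY against Model, DESeq2 called Nlrc5 higher (1.03, adjusted P = 0.0327). With library size after removal of the mitochondrial genes it was called higher by edgeR as well (1.17, adjusted P = 0.0472). Of the class I members, H2-D1 (-0.51, adjusted P = 0.0177) and B2m (-0.68, adjusted P = 0.0236) were called lower in YHY against Ctrl with TMM scaling and H2-K1 was not called.

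Markers of the cells that carry class II molecules were read beside the fall of the class II genes. The 5 pan leukocyte genes summed to 40.8, 27.5, 38.0 and 29.5 CPM in Ctrl mice, 41.5, 38.1, 46.5 and 52.9 in Model mice and 62.3, 87.1, 35.7 and 39.6 in YHY mice, with Coro1a the most abundant. Model against Ctrl called 0 lower and 1 higher of these, Cd53 (1.10), which was not called with library size alone. The 12 macrophage genes summed to 255, 179, 261 and 216 CPM in Ctrl mice, 219, 242, 275 and 332 in Model mice and 368, 552, 259 and 229.9 in YHY mice, with Lyz2 the most abundant, and 3 lower and 1 higher were called in Model against Ctrl. The lower ones were the complement genes C1qa (-1.08), C1qb (-1.003) and C1qc (-1.62), and the higher one was the lysosomal Cd68 (1.05). Cd68 was not called with library size alone, nor C1qb with library size after removal of the mitochondrial genes. The balance of the list turned with the scaling. Library size alone called 5 lower and 0 higher, and library size after that removal 2 lower and 3 higher. Lyz2 (1.07, adjusted P = 0.0136) and Mertk (0.69, adjusted P = 0.00791, edgeR) were added as higher in the latter. At an unadjusted P under 0.05, 5 macrophage genes were lower and 2 higher. Without Lyz2 the macrophage sums ran from 113 to 158 CPM in Ctrl mice and from 97.8 to 147 in Model mice. The leukocyte and macrophage sums of Ctrl and Model overlapped and were not tested.

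Dendritic cell markers, with 7 of 9 tested, summed to 7.49 to 11.4 CPM in Ctrl mice, 12.6 to 19.2 in Model mice and 13.1 to 20.0 in YHY mice, and Zbtb46, the most abundant, was called higher in Model (1.05, adjusted P = 0.00141, edgeR). Without Zbtb46 the sums overlapped, with 3.19 to 6.10 CPM in Ctrl mice and 3.93 to 6.62 in Model mice. Over all 7 genes tested, Zbtb46 included, the median log2 fold change was -0.10. Over the 5 of these also tested after removal of the mitochondrial genes, it was 1.05 with TMM scaling. For Batf3 the adjusted P was just above 0.05 (log2 fold change 1.18, adjusted P = 0.0504, edgeR), and 1 of the list was called higher with TMM scaling and with library size alone, and 2 by DESeq2, with upper-quartile scaling and with library size after removal of the mitochondrial genes. B cell markers were near the floor, with 3 of 8 tested, Cd79b the most abundant, and sums of 3.36, 2.93, 3.23 and 3.32 CPM in Ctrl mice, 1.38, 1.76, 2.01 and 1.75 in Model mice and 5.65, 1.33, 2.34 and 1.70 in YHY mice, so that all Model mice were below all Ctrl mice. T and NK cell markers, 5 of 10 tested, summed to 8.57, 3.49, 3.40 and 2.19 CPM in Ctrl mice, 2.61, 1.52, 1.05 and 1.80 in Model mice and 3.13, 3.10, 3.87 and 2.32 in YHY mice. Ctrl 1 was the highest there, as it was for H2-Aa, H2-Eb1, Cd74, Ciita, H2-DMb1, H2-D1 and B2m. Of B cell and of T and NK cell genes, edgeR called 0 lower and 0 higher in Model against Ctrl, with 0 and 2 lower at an unadjusted P under 0.05, and DESeq2 called 0 and 1. With library size alone, 1 and 2 were called lower. Endothelial markers, which include Emcn as the most abundant, summed to 146 to 207 CPM in Ctrl mice, 183 to 241 in Model mice and 185 to 304 in YHY mice, and 0 lower and 1 higher of 6 were called in Model against Ctrl. The higher one, Egfl7, was not called with library size alone (0.28, adjusted P = 0.212, edgeR). Library size after removal of the mitochondrial genes called 2 higher, Kdr (0.44, adjusted P = 0.0267, edgeR) being added. No marker of these lists was at 0 in all mice. The part of these cells, and of the mitochondrial share, in the MHC values was not tested.

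Tissue attached to the kidney could also carry MHC molecules. Lymph node stroma markers, 3 of 5 tested with Ccl21a the most abundant, summed to 3.82 to 10.4 CPM in Ctrl mice, 6.14 to 13.5 in Model mice and 10.4 to 15.1 in YHY mice, and Cxcl13 was called higher in Model (2.38, adjusted P = 0.00631, edgeR). Of the fat markers 1 of 5 was tested, Car3, the most abundant, with sums of 15.6 to 26.9 CPM in Ctrl mice, 21.5 to 28.3 in Model mice and 3.65 to 7.35 in YHY mice, lower in YHY than in Model (-2.29, adjusted P = 1.70e-04, edgeR). Adipoq, Plin1, Cfd and Retn were too low for a test. Among the kidney markers 4 lower and 2 higher were called in Model against Ctrl, and 0 lower and 0 higher in YHY against Model by edgeR, with 2 lower and 1 higher at an unadjusted P under 0.05 and 1 lower and 1 higher by DESeq2. In Model against Ctrl, Aqp2 lost its lower call by DESeq2 (adjusted P = 0.0760) and with upper-quartile scaling (0.0553, edgeR). It was also lost with library size after removal of the mitochondrial genes (0.116, edgeR), and 3 were called lower in each case.

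**Figure D5:**
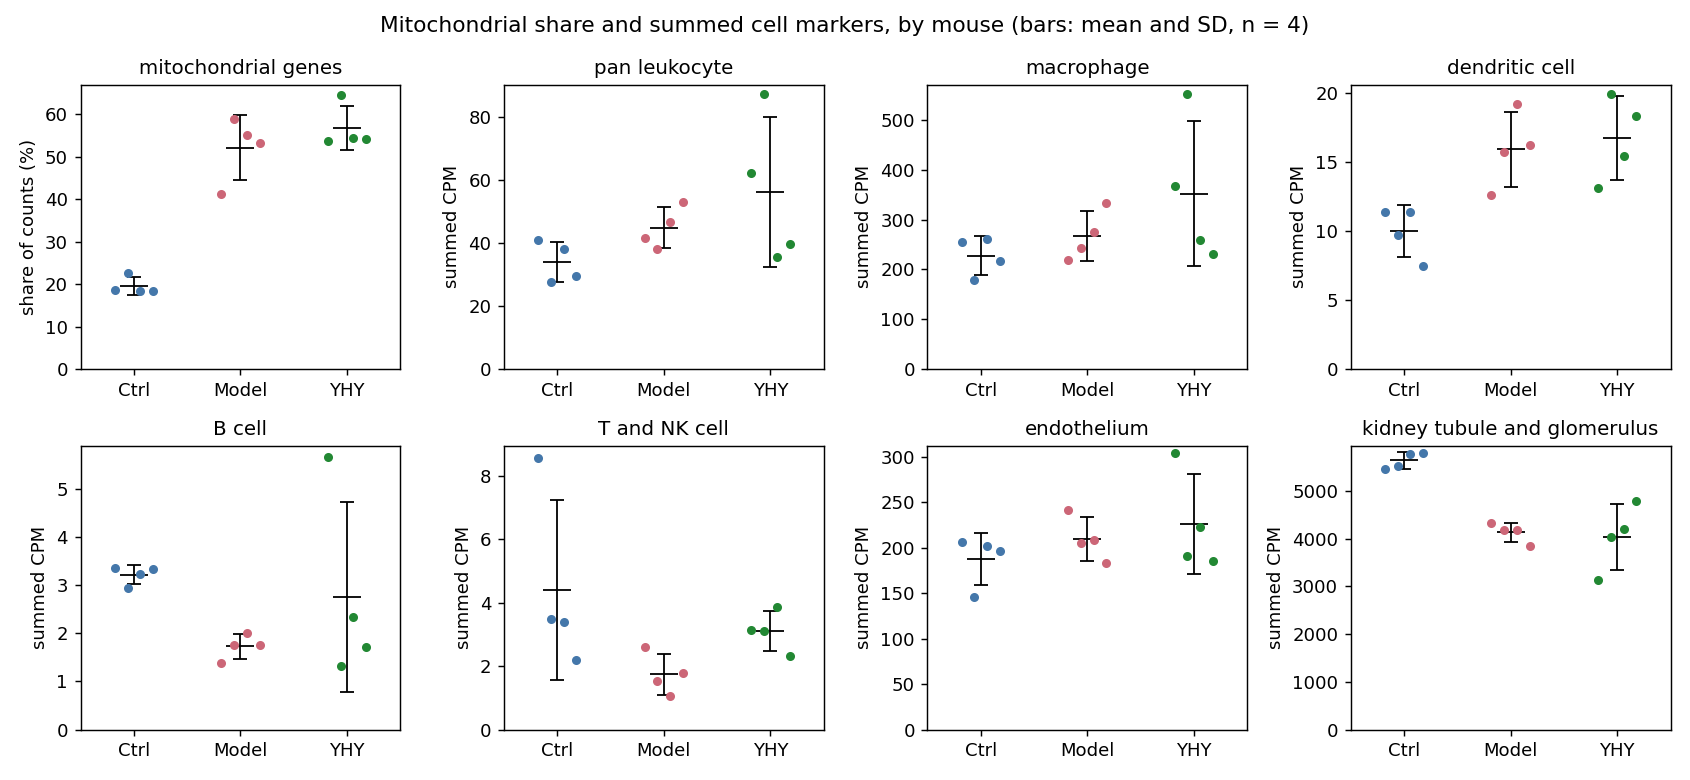
Mitochondrial share of the counts (%) and summed CPM of 7 lists of cell markers (vertical axes from 0) in each mouse, with 1 point per mouse and bars for the mean and SD of 4 mice. Macrophage sums overlap between Ctrl (179 to 261 CPM) and Model (219 to 332 CPM), whereas B cell sums do not (2.93 to 3.36 and 1.38 to 2.01 CPM).

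Within groups, the class I genes varied together, as did H2-Aa, H2-Eb1 and Cd74. After the mean of each group was taken off, the Pearson correlation of log2 CPM over the 12 mice was 0.938 for H2-D1 and B2m, 0.774 for H2-K1 and H2-D1, 0.858 for H2-Aa and H2-Eb1 and 0.754 for H2-Eb1 and Cd74, as a description of mice that share their scaling. Pairs across the classes reached 0.666 for H2-K1 and Cd74. H2-DMb1 did not follow the class II chains, with -0.182 for H2-Aa and -0.380 for H2-Eb1. Among 12937 genes outside all lists with a mean count of at least 50, those closest to the mean profile of H2-Aa, H2-Ab1, H2-Eb1 and Cd74 were Rgs5 (0.906), Arl6 (0.873), Gmps (0.859), Tmem184c (0.833) and Iigp1 (0.826), with the Pearson correlation in parentheses. Those closest to H2-K1, H2-D1 and B2m were Golph3 (0.967), Nsmce2 (0.943), Ino80c (0.921), Tusc1 (0.91) and Serp1 (0.907). No chance level was computed for the highest of so many correlations over 12 mice. Arl6 (-1.11), Gmps (-0.81) and the interferon-inducible GTPase Iigp1 (-1.37) of the former, and Golph3 (-0.65) and Serp1 (-0.83) of the latter, were called lower in Model against Ctrl (log2 fold changes in parentheses, edgeR), and the other 5 were not.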

How the data were processed

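Per the labels, the authors named FastQC 0.11.9, Trimmomatic 0.39, HISAT2 2.2.1, SAMtools 1.12, featureCounts 2.0.1, DESeq2 1.34.0 and the mouse build GRCm39, without their settings or the use of strand. The authors deposited unnormalized read counts per gene for each mouse, with gene lengths and coordinates, and these counts were used for all values and tests. The authors also deposited group means as a signal, made of counts scaled for each library, which served only to see that the means leave out Ctrl 2, Model 1 and YHY 4. The 12 columns of values per mouse in their comparison files were not used, and the pathway tables were not used.

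Counts were fitted with edgeR 4.0.16 in R 4.3.3 (TMM, filterByExpr, glmQLFit and glmQLFTest) without covariates. In a self-test on these counts with 200 genes altered, 140 were called, all in the right direction, beside 10 unaltered genes. DESeq2 1.42.0 was the other tool, and Python 3.11.15 drew the figures. Members and gene lists were chosen with earlier results of these data known. Genes of similar pattern were the 5 of highest Pearson correlation with each profile, outside all lists.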

Additional observations from a re-analysis of the deposited data

Results flagged for a closer look

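Of 36 groups of 4 mice examined (the 10 MHC genes, H2-Ea and the mitochondrial share, each in Ctrl, Model and YHY), 2 held a mouse far from the others by Dixon's ratio of gap to range, past its 95% critical value, and chance alone gives about 1 in 20 such groups. The mitochondrial share of Ctrl 2 was 22.7%, where the other 3 Ctrl mice had 18.4% to 18.6% (ratio 0.962). That of YHY 2 was 64.6%, where the other 3 YHY mice had 53.8% to 54.6% (ratio 0.933). No level of an MHC gene stood apart in this way within a group, and the cause of the mitochondrial shares was not tested.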

How the results depend on the processing

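The numbers of MHC genes called, 6 in 3 comparisons and 2 directions, were taken under 24 alternatives, and the log2 fold changes of the 10 genes under 23. Of the former values, 129 were equal to the number reported or within 1.5 times of it, 11 were smaller and 4 larger. Those 129 include 8 lower where 6 were reported, in Model against Ctrl with library size alone. Of the latter, 644 kept their direction and their side of the threshold, 28 lost the call, 9 gained it and 9 changed sign. H2-Aa, H2-Eb1 and Cd74 were called lower in Model against Ctrl under all 23, with H2-Aa from -2.16 to -1.41.

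At the study's limits YHY against Model gave 1 gene higher and 2 lower. With library size alone it gave 0 lower, as with library size after removal of the mitochondrial genes, with only the 8 mice compared and with only the 9 mice of the authors' means. After removal of the mitochondrial genes Model against Ctrl gave 1 higher and 3 lower, and YHY against Ctrl 1 higher and 2 lower. That scaling moved the median of all genes to 0.37, 0.16 and 0.57 in Model against Ctrl, YHY against Model and YHY against Ctrl, library size alone to -0.39 in the first and -0.33 in the last, and upper-quartile scaling to 0.14 and 0.22. Of the genes called, 64.6% were then higher in YHY against Model where TMM gave 42.5%, and in YHY against Ctrl 77.7%, or 28.4% with library size alone, where TMM gave 51.9%. The cause of these changes was not tested beyond the scaling itself.

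Changes of sign were seen for H2-K1 in YHY against Ctrl (0.0377 with upper-quartile scaling and 0.4017 after removal of the mitochondrial genes), H2-K1 in Model against Ctrl (0.0478 after that removal), H2-DMa in Model against Ctrl (-0.1262 with library size alone) and H2-DMa in YHY against Ctrl (0.0318 after the removal). In YHY against Model they were seen for H2-DMb1 without Model 1 (-0.0352), B2m without Model 4 (-0.0604) or YHY 3 (-0.0567) and Cd74 without YHY 3 (-0.059). With each mouse left out in turn, these ran from -0.0352 to 0.4628 for H2-DMb1, from -0.0604 to 0.3697 for B2m and from -0.059 to 0.4498 for Cd74.

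With 1 mouse left out at a time, the genes called lower ran from 5 to 6 in Model against Ctrl, from 0 to 1 in YHY against Model and from 5 to 8 in YHY against Ctrl, and those called higher from 0 to 0 by edgeR in each. B2m lost its call in Model against Ctrl without Model 4 (adjusted P = 0.0528). H2-DMa lost its call in YHY against Model without Model 1 (0.0576), Model 2 (0.0501), Model 3 (0.0976), Model 4 (0.0735), YHY 1 (0.0788) and YHY 3 (0.0524), where Ciita was called in its place (0.0459).

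The mouse numbers do not pair mice across groups: the correlation of same-number mice, after the mean of each group was taken off, ran from -0.208 to 0.17 over 12 pairs, 2 of them over 0.1. With the number as a replicate block the genes called were 6 lower in Model against Ctrl, 1 lower in YHY against Model and 7 lower in YHY against Ctrl, with 0 higher in each by edgeR, as without the block. Low counts were more often even than odd, 64.9% to 72.0% of counts from 1 to 20 per mouse, and with all counts halved, an alternative chosen after seeing the data, the numbers called were the same. It is not stated whether both reads of a pair were counted, so the read numbers and the Wilson intervals are not known to count independent fragments.

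The values are limited by 4 mice per group, by bulk tissue and by a mitochondrial share that differs between Ctrl and the db/db groups. They are also limited by reads aligned to a reference strain in which H2-Ea is silent, whereas it was read in all 12 mice. The H2 haplotype of these mice is not given in the labels. H2-DMb1 and Ciita rest on few reads, down to 13 and 10 in a mouse.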
